A study of Mus musculus with 8 samples.

Results

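Imprinted genes are transcribed mainly from the copy inherited from 1 parent, and 40 mouse genes of this kind were followed in kidneys of Tet1 knockout (KO) and wildtype (WT) mice with and without ischemia/reperfusion (I/R) injury. They were found by gene symbol in the deposited table of 55919 genes. Of the 40, 39 had a value above 0 in at least 1 library and 32 were above 0 in all 8 libraries. A mean of 1 FPKM in at least 1 group was reached by 25. FPKM are fragments per kilobase of gene, scaled by a total that the authors used for each library. Magel2 was listed at 0 throughout. The main test, limma on log2(FPKM + 0.1), was run on genes that reached 1 FPKM in 2 or more libraries and covered 24 of the 40 members. A test on reads recovered from the FPKM, limma voom with the authors' library totals, covered 34. Dlk1, Mirg, Usp29, Rtl1, Magel2 and Ascl2 had too few reads for either.

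The RNA came from whole kidneys of female mice on a mixed C57BL/6 and 129S4/SvJae background. KO mice carried the germline allele Tet1tm1.1Jae, so the mutation was present in every cell type from conception, and WT mice were their littermates. For injury the left renal pedicle was clamped for 45 min, and kidneys were taken 3 days later (labelled I/R 3D, written I/R here). Non-injured kidneys are called NI, and the sources used here give no age for these mice and do not say whether NI kidneys came from other animals than injured ones. The groups without injury, WT-NI and KO-NI, and those with it, WT-I/R and KO-I/R, had 2 libraries each, and every library pooled RNA of 3 mice. The p-values therefore measure the spread between pools.

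By way of background, imprinted expression is set by DNA methylation that is laid down differently in the male and female germ lines at control regions and is then kept through cell division. Imprinted genes lie in clusters, where a control region often drives a long noncoding RNA from the unmethylated copy and neighbouring genes follow that state. Many members regulate fetal growth, with paternally expressed genes such as Igf2 promoting it and maternally expressed genes such as Igf2r and Cdkn1c restraining it. TET enzymes oxidise 5-methylcytosine, and TET1 takes part in erasing imprints in germ cells. By general knowledge 22 of the 40 members are expressed from the paternal copy, 11 from the maternal copy and 7 from a copy that depends on tissue or isoform. FPKM add up both copies, so the parental origin of the RNA was not measured here.

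Recovered reads ran from 13961281 to 18480858 per library. The authors' totals were 0.808 to 0.886 times these in NI libraries and 1.04 to 1.13 times in injured ones. The part of this in the injury changes was not tested. Library 1 of KO-NI stood apart, with 1804 tested genes more than 2-fold different from its partner, against 723 to 838 between the partners of the other groups, and with 10.9% of reads from mitochondrial DNA against 7.49% in its partner. Tet1 itself was at 0.323 to 0.378 FPKM in WT-NI, 0.382 to 0.551 in KO-NI, 0.243 to 0.313 in WT-I/R and 0.158 to 0.189 in KO-I/R. The libraries labelled KO-NI were thus not below WT-NI for Tet1. A gene-level value cannot separate deleted exons from the rest, so it does not check the KO labels, and KO below means the libraries labelled KO. In bulk kidney, fewer cells of a type and less RNA per cell cannot be told apart. The summed level of 8 proximal tubule markers was 4107 to 4154 FPKM in WT-NI, 3635 to 4095 in KO-NI, 1817 to 1952 in WT-I/R and 1020 to 1308 in KO-I/R, with no marker at 0. That of 12 fibroblast and pericyte markers was 61.2 to 65.3, 56.7 to 61.8, 235.3 to 273.6 and 295.0 to 370.0 FPKM in the same order, and that of 8 macrophage markers was 85.8 to 95.5, 69.7 to 71.4, 531.1 to 594.9 and 602.6 to 937.1. Podocyte markers (10 genes) summed to 169.5 to 172.0 in WT-NI, 170.6 to 185.8 in KO-NI, 114.2 to 134.0 in WT-I/R and 111.0 to 132.9 in KO-I/R. Adrenal markers summed to at most 3.06 FPKM in any library, with 4 of 11 at 0 throughout. The part of these shifts in the results below was not tested.

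In these kidneys the levels of imprinted genes differed widely, as the plot of group means shows. Slc22a18, a maternally expressed transporter gene, was by far the highest. It alone gave 64.9% and 67.3% of the summed member level in WT-NI, 61.7% and 67.0% in KO-NI, 57.8% and 53.6% in WT-I/R and 44.0% and 39.3% in KO-I/R. The sum itself was 487 and 497 FPKM in WT-NI, 433 and 467 in KO-NI, 337.5 and 321 in WT-I/R and 252 and 229.6 in KO-I/R. A mean of 10 FPKM in at least 1 group was reached by 8 members, namely Slc22a18, Igf2r, H13, Blcap, Cdkn1c, Inpp5f, Peg13 and Phlda2. Classic fetal members were low: H19, Meg3, Dlk1, Mest, Peg10, Rian and 9 others stayed under 1 FPKM in every group mean.

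**Figure D1:**
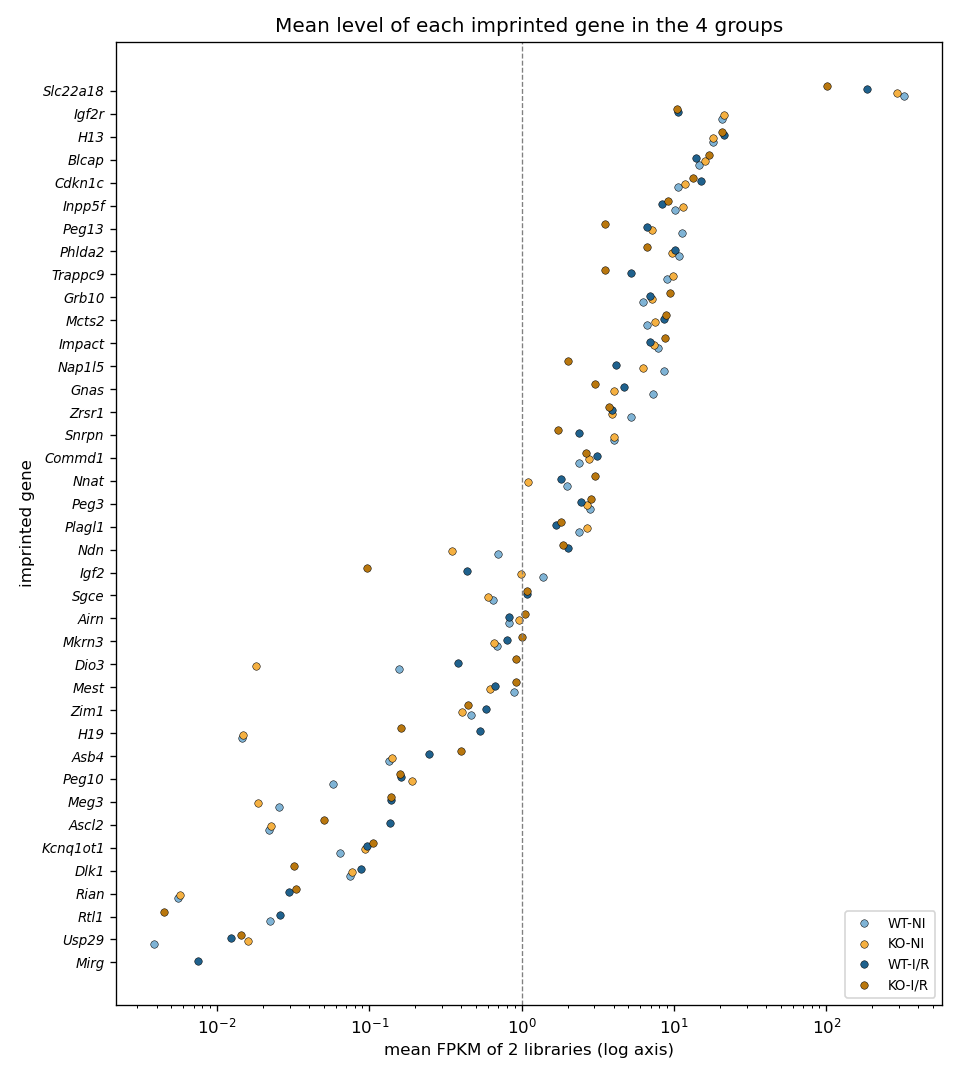
Mean FPKM of the 2 libraries of each group (log axis) for the 39 imprinted genes above 0, with 1 dot per group and the dashed line at 1 FPKM; a group mean of 0 has no dot. Slc22a18 stands at 100.5 to 325.3 FPKM, all other members are at or under 21.3, and 15 members including Magel2 lie under 1 FPKM in all 4 groups.

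The members belong to 18 clusters (positions below are GRCm38, from GENCODE M21 by gene ID). The Kcnq1 cluster on chromosome 7 holds Ascl2, Kcnq1ot1, Cdkn1c, Slc22a18 and Phlda2, and 2.21 kb separate Slc22a18 (chr7:143473736-143499334, plus strand) from Phlda2 (chr7:143501545-143503150, minus strand). H19 (chr7:142575529-142578143) and Igf2 (chr7:142650766-142666816) lie 72.6 kb apart on the minus strand of the same chromosome. Some members lie inside others: the noncoding Peg13 (chr15:72805600-72810324) in an intron of Trappc9 (chr15:72589620-73061204), Nnat (chr2:157560078-157562522) in an intron of Blcap, Mcts2 in H13, and Zrsr1 in Commd1. The sources do not say whether strand was used in counting, so reads of a nested gene and of unspliced host RNA cannot be told apart. Igf2 shares 3596 exon bases, 62.8% of its exons, with the read-through model Gm49394, which was listed at 0 in all 8 libraries. Snrpn shares 589 (27.3%) with Gm38393, at 0.207 to 0.561 FPKM, and 216 (10%) with Snurf, listed at 0. With genes on the opposite strand, Cdkn1c shares 625 (30.6%, Gm44732, listed at 0) and Gnas 1469 (13.1%, Gm20721, at most 0.192 FPKM). Mest shares 912 exon bases (23.1%) with Copg2 on the opposite strand, which was at 6.41 to 12.8 FPKM. Zrsr1 and Commd1, on opposite strands, share 412 exon bases, 9.17% of Zrsr1 and 6.94% of Commd1. The levels of Igf2, Snrpn, Cdkn1c, Gnas, Mest, Zrsr1 and Commd1 are therefore uncertain.

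Promoters bear on genes whose cluster is set by CpG methylation, and RefSeq (GRCm38.p6) gave 47 promoters, from 250 bases before to 50 after the start, for 32 of the 40 members. Their median was 15 CpG dinucleotides, against 7 over all 32851 promoters. The hexamer TGCCGC, the methylation-dependent binding motif of the imprint keeper ZFP57, was searched on both strands (reverse complement GCGGCA) and was found in 12 of the 47 (25.5%), against 11.6% of all promoters. Counted by gene, with a match in any of its promoters, the figures were 11 of 32 (34.4%) against 13.1% of 27025 genes. The hexamer itself contains a CpG, and the part of the higher CpG content in these shares was not tested. Some of the 47 windows overlap, such as 2 of Mest that both hold the motif. A match describes letters and is no evidence of binding. Promoters of 5 members are shown, those of the neighbours Slc22a18 and Phlda2 because they differ in CpG content, and those of Igf2, Igf2r and Nap1l5 because these genes had lower RNA after injury in both genotypes. Each is 5′ to 3′ on the gene's strand, with every CpG in capitals.
Slc22a18, chr7:143473539-143473838, plus: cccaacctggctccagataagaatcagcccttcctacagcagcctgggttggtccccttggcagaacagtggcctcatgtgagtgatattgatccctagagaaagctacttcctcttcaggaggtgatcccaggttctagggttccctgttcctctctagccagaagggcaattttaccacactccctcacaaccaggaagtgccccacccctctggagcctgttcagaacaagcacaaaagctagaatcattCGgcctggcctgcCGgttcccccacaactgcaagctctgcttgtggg
Phlda2, chr7:143502475-143502774, minus: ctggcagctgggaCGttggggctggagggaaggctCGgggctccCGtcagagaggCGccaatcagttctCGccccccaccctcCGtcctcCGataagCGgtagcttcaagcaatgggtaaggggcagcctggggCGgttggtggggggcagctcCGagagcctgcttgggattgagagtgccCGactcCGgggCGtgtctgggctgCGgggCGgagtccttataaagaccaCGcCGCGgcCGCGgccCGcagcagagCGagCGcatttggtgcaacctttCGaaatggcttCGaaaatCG
Igf2, chr7:142658755-142659054, minus: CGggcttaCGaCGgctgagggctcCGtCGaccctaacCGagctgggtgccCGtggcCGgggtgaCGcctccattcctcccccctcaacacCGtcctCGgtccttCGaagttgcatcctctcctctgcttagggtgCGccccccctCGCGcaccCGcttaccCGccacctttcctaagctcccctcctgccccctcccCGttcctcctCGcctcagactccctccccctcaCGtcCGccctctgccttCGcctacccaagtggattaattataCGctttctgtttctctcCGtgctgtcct
Igf2r, chr17:12769657-12769956, minus: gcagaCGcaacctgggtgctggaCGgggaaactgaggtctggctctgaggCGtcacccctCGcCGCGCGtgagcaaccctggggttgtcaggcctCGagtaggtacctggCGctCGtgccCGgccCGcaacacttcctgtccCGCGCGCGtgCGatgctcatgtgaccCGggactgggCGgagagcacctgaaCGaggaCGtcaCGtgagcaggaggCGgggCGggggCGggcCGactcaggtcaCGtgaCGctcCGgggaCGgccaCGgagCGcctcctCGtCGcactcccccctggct
Nap1l5, chr6:58907077-58907376, minus: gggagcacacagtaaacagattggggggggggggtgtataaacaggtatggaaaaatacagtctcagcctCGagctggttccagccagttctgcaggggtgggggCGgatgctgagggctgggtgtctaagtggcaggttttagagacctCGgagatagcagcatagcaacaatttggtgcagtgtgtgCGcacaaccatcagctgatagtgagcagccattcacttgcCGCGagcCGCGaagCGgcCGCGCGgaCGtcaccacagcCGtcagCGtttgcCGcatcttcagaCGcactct
The Slc22a18 window held 2 CpG and that of Phlda2, its neighbour, held 26. Those of Igf2, Igf2r and Nap1l5 held 24, 34 and 17. TGCCGC occurred 2 times in the Nap1l5 window and in none of the other 4. The Igf2 window shown is the one with most CpG. Other Igf2 promoters held 2, 7 and 14 CpG, and the one with 14 held TGCCGC 1 time. DNA methylation was not analysed here.

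The injury comparison asks how RNA levels at day 3 after I/R differ from non-injured kidney in each genotype. By limma, Igf2, Igf2r, Slc22a18, Nap1l5, Peg13 and Trappc9 fell in WT kidney and none of the 24 tested members was called higher. In KO kidney the same 6 genes fell together with Snrpn, while Ndn and Nnat rose. The test on recovered reads also called H19, Meg3, Ndn and Sgce higher in both genotypes and Dio3 and Rian higher in KO. A gene was called where its Benjamini-Hochberg adjusted p was below 0.05 and its log2 fold change was beyond 0.5 in size. By that rule 6 of 24 members were called in WT (25%, all lower), against 17.3% of all 15650 tested genes (8.45% lower and 8.9% higher). In KO, 9 of 24 were called (37.5%, 7 lower and 2 higher), against 37.4% of all genes (19.4% lower and 17.9% higher). In this fit, with all libraries and in FPKM, the KO share of members called was thus close to that of genes in general. That did not hold under every alternative. The median log2 fold change of the 24 was -0.17 in WT and 0.01 in KO, against -0.01 over all genes in both. The 8 proximal tubule markers summed to at most 1952 FPKM in injured and at least 3635 in NI libraries. By limma 7 of these markers were called lower and 1 higher in each genotype. Their part in the lower imprinted members was not tested.

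Igf2, Ndn and Sgce passed the filter only through the groups in which they were high, so they could hardly enter without differing. Without any filter, 6 of 39 members were called in WT, 1 higher and 5 lower, against 6.69% of all genes (3.75% higher and 2.95% lower). In KO it was 11 of 39, 4 higher and 7 lower, against 18.9% (9.96% and 8.98%). The WT calls depended on each of the 4 WT libraries: without library 1 or 2 of WT-NI or without library 1 of WT-I/R none of the members was called, and without library 2 of WT-I/R 1 was (Igf2r), while counts over all genes went from 2715 to between 287 and 711. In KO the 9 called members kept their direction in every fit with 1 library left out that tested them. Without the outlying library 1 of KO-NI the KO changes were 0.55 for Cdkn1c, -1.19 for Gnas and -0.76 for Phlda2. With all libraries they were 0.21, 0.09 and -0.53. Rescaling to TPM moved the median of all genes by 0.18 in WT and 0.40 in KO. The calls became 1 higher and 4 lower in WT, against 16.2% of all genes (11.6% higher and 4.58% lower), and 9 higher and 7 lower in KO, against 42.5% (32.4% and 10.1%). Over all genes the split became 1811 higher and 717 lower in WT and 5076 and 1580 in KO, against 1393 and 1322 and 2808 and 3043 in FPKM. Fold changes below are in the deposited FPKM, and no called member changed direction in TPM.

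**Figure D2:**
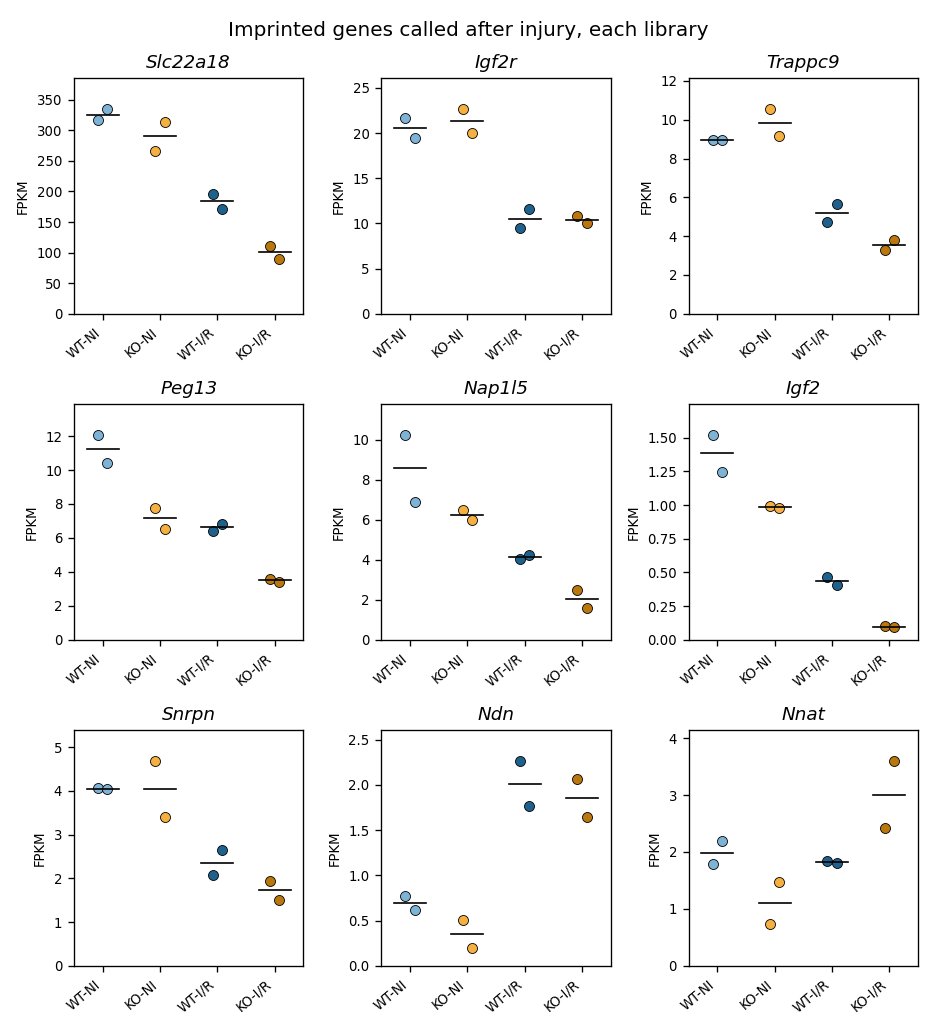
FPKM of the 9 members called after injury in at least 1 genotype, 1 dot per library and a line at the mean of the 2 libraries of a group; each axis starts at 0. Slc22a18, Igf2r, Trappc9, Nap1l5, Igf2 and Snrpn are lower in every injured library than in any NI library, Peg13 overlaps between KO-NI and WT-I/R, Ndn is higher in every injured library, and Nnat is highest in KO-I/R.

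Igf2 encodes a fetal growth factor that signals through the IGF1 and insulin receptors. It was at 1.52 and 1.25 FPKM in WT-NI, 0.992 and 0.980 in KO-NI, 0.467 and 0.408 in WT-I/R and 0.1002 and 0.0923 in KO-I/R. Every injured library was below every NI library, and the KO-I/R pair, with 10 and 11 reads, was lowest. The log2 fold change after injury was -1.46 in WT (standard error 0.40, adjusted p = 0.0482) and -2.47 in KO (adjusted p = 0.00366). The WT call was near the threshold and was lost in 8 of 14 alternatives, TPM (-1.41) among them, while the KO call held in all 14. Other genes of this axis, a list of 19 with 16 tested, had 1 higher and 7 lower in WT and 3 higher and 9 lower in KO. Over all tested genes 8.9% were higher and 8.45% lower in WT, and 17.9% and 19.4% in KO. Of the list, Igfbp3 (-1.65 in WT, -1.20 in KO) and Igfbp4 (-0.99 and -1.31), both IGF binding proteins, fell in both genotypes. So did the insulin receptor gene Insr (-0.83 and -0.95) and the adaptor gene Irs1 (-1.10 and -2.12). Igfbp7 (-0.13 in WT and -0.05 in KO) was among those not called. In the same list Igf1 was higher in the injured libraries of each genotype. It was at 1.38 and 1.14 FPKM in WT-NI and 2.47 and 1.14 in KO-NI. After injury it was at 2.65 and 2.32 in WT-I/R and 3.01 and 3.14 in KO-I/R.

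H19, the maternally expressed noncoding RNA next to Igf2, had the opposite pattern at very low levels. It had 0 and 1 reads in WT-NI, 0 and 1 in KO-NI, 23 and 24 in WT-I/R and 8 and 7 in KO-I/R, or at most 0.531 FPKM. All injured libraries exceeded all NI libraries. With reads scaled for depth by the authors' library totals, the ratio was 37 in WT (95% exact interval 6.33 to 1490) and 9.8 in KO (1.51 to 413). These intervals cover counting error only. H19 entered the test on recovered reads only through WT-I/R, the single group with 10 reads in a library. That test called it higher in WT (adjusted p = 0.00392) and in KO (adjusted p = 0.0338). The WT call was lost without library 1 of WT-NI (adjusted p = 0.0677), and the KO call without library 1 of KO-NI (0.201) or without library 1 or 2 of KO-I/R (0.0968 and 0.0581). Over all members the test on recovered reads called 4 of 34 members higher and 7 lower in WT (20.1% of all genes called, 10.8% higher and 9.34% lower) and 7 higher and 7 lower in KO (38.9%, 20% higher and 18.9% lower).

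Igf2r encodes the receptor that carries IGF2 and mannose 6-phosphate proteins to lysosomes. Its levels were 21.7 and 19.5 FPKM in WT-NI, 22.7 and 20.0 in KO-NI, 9.55 and 11.5 in WT-I/R and 10.8 and 10.1 in KO-I/R. The injured libraries of both genotypes sat close together, well below the NI libraries. The changes were -0.96 in WT (standard error 0.14, adjusted p = 0.00818) and -1.02 in KO (adjusted p = 0.00198). Airn, the antisense RNA that silences the paternal Igf2r copy in mouse, was at 1.04 and 0.602 in WT-NI, 0.786 and 1.12 in KO-NI, 0.713 and 0.928 in WT-I/R and 1.36 and 0.727 in KO-I/R. All 4 groups overlapped for Airn, and its changes were 0.03 and 0.08 with a standard error of 0.42.

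In the Kcnq1 cluster Slc22a18 fell most in absolute terms. It stood at 316 and 335 FPKM in WT-NI, 267 and 313 in KO-NI, 195 and 172 in WT-I/R and 111 and 90.2 in KO-I/R. The 4 groups did not overlap, though the higher KO-NI library came close to the lower WT-NI library. The log2 fold change was -0.83 in WT (standard error 0.16, adjusted p = 0.0161) and -1.53 in KO (adjusted p = 0.000782). Its neighbour Phlda2, which restrains placental growth, was at 11.2 and 10.4 in WT-NI, 8.15 and 11.2 in KO-NI, 11.3 and 8.96 in WT-I/R and 6.24 and 6.94 in KO-I/R. Phlda2 was lowest in KO-I/R but was not called (-0.10 in WT, and -0.53 with adjusted p = 0.0629 in KO). Without library 1 of KO-NI it was called in KO (-0.76). Cdkn1c, a cyclin-dependent kinase inhibitor, was at 9.69 and 11.6, 14.4 and 9.04, 14.1 and 15.8, and 13.7 and 12.8 FPKM in WT-NI, KO-NI, WT-I/R and KO-I/R. The main fit did not call Cdkn1c (0.49 in WT and 0.21 in KO), but in TPM it was called higher in KO (0.62, limma adjusted p = 0.0394). Its KO change was 0.55 without library 1 of KO-NI and -0.12 without library 2. The long noncoding RNA of this cluster, Kcnq1ot1, had 83 to 197 reads per library and was not called, and Ascl2 had at most 5. Of the 3 tested genes of this cluster, Slc22a18 was thus the only member called by the main fit.

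Trappc9 encodes a subunit of a vesicle tethering complex, and its intron holds Peg13, a paternally expressed noncoding RNA. Trappc9 was at 8.95 and 8.95 FPKM in WT-NI, 10.5 and 9.16 in KO-NI, 4.74 and 5.67 in WT-I/R and 3.27 and 3.79 in KO-I/R. Peg13 was at 12.1 and 10.4, 7.75 and 6.54, 6.40 and 6.85, and 3.60 and 3.38 in the same order. Both fell in both genotypes, but Peg13 was also lower in KO-NI than in WT-NI in both libraries, whereas Trappc9 was higher. For Trappc9 the change was -0.78 in WT (adjusted p = 0.0162) and -1.45 in KO (adjusted p = 0.000753). For Peg13 it was -0.75 in WT (adjusted p = 0.0154) and -1.01 in KO (adjusted p = 0.00211).

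Nap1l5, a paternally expressed gene of the nucleosome assembly protein family within an intron of Herc3, was at 10.2 and 6.89 FPKM in WT-NI, 6.49 and 5.97 in KO-NI, 4.04 and 4.21 in WT-I/R and 2.49 and 1.56 in KO-I/R. The groups followed each other in that order without overlap. The change was -1.01 in WT (adjusted p = 0.0386) and -1.61 in KO (adjusted p = 0.00348), and the WT call was lost in 7 of 16 alternatives. Its host Herc3 fell too, from a mean of 9.60 to 5.23 FPKM in WT (-0.85) and from 9.61 to 5.73 in KO (-0.74).

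In the Snrpn cluster on chromosome 7, Snrpn and Ndn, both paternally expressed and 2210 kb apart, went opposite ways. Snrpn, which encodes a small nuclear ribonucleoprotein of the spliceosome, was at 4.06 and 4.03 FPKM in WT-NI, 4.68 and 3.41 in KO-NI, 2.08 and 2.64 in WT-I/R and 1.94 and 1.51 in KO-I/R. It fell in KO (-1.18, adjusted p = 0.00602) and in WT had a change of -0.76 (adjusted p = 0.0546). Ndn, encoding the growth suppressor necdin, was at 0.772 and 0.618 in WT-NI, 0.504 and 0.197 in KO-NI, 2.26 and 1.76 in WT-I/R and 2.07 and 1.64 in KO-I/R. Its change was 1.41 in WT (adjusted p = 0.0523) and 2.20 in KO, where it was called higher (adjusted p = 0.00543). In WT 8 of 16 alternatives called it, and their adjusted p ran from 0.0111 to 0.227. The test on recovered reads called Ndn higher and Snrpn lower in both genotypes. Mkrn3, a ubiquitin ligase gene, was at 0.792 and 0.588, 0.453 and 0.858, 0.915 and 0.682, and 0.968 and 1.04 FPKM in the 4 groups, overlapping in WT and higher after injury in KO, and the test on recovered reads did not call it (0.20 in WT and 0.63 in KO).

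Nnat, encoding the membrane proteolipid neuronatin, was at 1.79 and 2.19 FPKM in WT-NI, 0.727 and 1.47 in KO-NI, 1.83 and 1.81 in WT-I/R and 2.41 and 3.60 in KO-I/R. Its WT groups overlapped (-0.11), while in KO it rose (1.42, standard error 0.34, adjusted p = 0.0163). The KO call was lost without library 2 of KO-I/R (1.14), the library with 3.60 FPKM. In that library 7 adipocyte markers summed to 35.4 FPKM, against 16.4 in its partner and at most 18.5 in the other libraries, and the part of this in the Nnat value was not tested. Blcap, the gene around it, was at 14.9 and 14.3, 18.8 and 13.3, 12.997 and 14.9, and 17.0 and 17.0 FPKM, and was not called (-0.07 and 0.10). Sgce, which encodes epsilon-sarcoglycan, was at 0.655 and 0.632 in WT-NI, 0.568 and 0.632 in KO-NI, 1.10 and 1.06 in WT-I/R and 1.02 and 1.16 in KO-I/R. All 4 injured libraries were above all 4 NI libraries, but limma did not call it (0.67, adjusted p = 0.157 in WT and 0.76, adjusted p = 0.0740 in KO), and the test on recovered reads did in both.

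The remaining tested members were not called after injury in either genotype. Grb10, an adaptor that dampens insulin and IGF1 receptor signalling, was at 6.13 and 6.30 FPKM in WT-NI, 7.57 and 6.69 in KO-NI, 6.85 and 6.96 in WT-I/R and 10.2 and 8.74 in KO-I/R. It was highest in KO-I/R, and its KO change of 0.40 had an adjusted p of 0.0459 but lay under the fold threshold. Plagl1, a zinc finger growth regulator, was at 2.46 and 2.31, 3.20 and 2.17, 1.64 and 1.72, and 1.89 and 1.70 FPKM in WT-NI, KO-NI, WT-I/R and KO-I/R. Every injured library was below every NI library for Plagl1 (-0.48 and -0.53). Inpp5f, a phosphoinositide phosphatase gene, was at 10.8 and 9.57, 12.6 and 10.3, 8.55 and 8.09, and 9.40 and 8.83 in the same order, again lower in each injured library (-0.28 and -0.32).

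H13, encoding signal peptide peptidase, was at 17.9 and 18.2 FPKM in WT-NI, 17.2 and 18.6 in KO-NI, 20.1 and 22.1 in WT-I/R and 18.8 and 22.3 in KO-I/R. Mcts2, the retrogene in its intron, was at 7.25 and 5.95, 8.17 and 6.79, 8.41 and 8.81, and 8.17 and 9.64. Every injured library was above every NI library for both, by small margins, and neither was called. Zrsr1, a splicing factor related retrogene, was at 5.02 and 5.37, 3.18 and 4.64, 3.82 and 3.95, and 4.07 and 3.44 FPKM. Its host Commd1, a copper and endosome trafficking gene, was at 1.86 and 2.86, 2.78 and 2.76, 3.25 and 3.03, and 2.53 and 2.78. Host and nested gene differed in order, with Zrsr1 highest in WT-NI and Commd1 highest in WT-I/R. Impact, a regulator of the translation kinase GCN2, was at 8.25 and 7.42, 8.33 and 6.52, 6.81 and 7.15, and 9.09 and 8.28. Peg3, a zinc finger gene, was at 2.98 and 2.63, 2.59 and 2.78, 2.75 and 2.17, and 3.35 and 2.30, with overlap between all groups.

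Gnas, which encodes the stimulatory G protein alpha subunit, was at 6.91 and 7.70 FPKM in WT-NI, 1.10 and 6.98 in KO-NI, 4.59 and 4.74 in WT-I/R and 2.93 and 3.08 in KO-I/R. The 1.10 was in the outlying library 1 of KO-NI. The KO injury value of 0.09 (standard error 0.70) rests on that library: without it Gnas was called lower (-1.19, adjusted p = 0.00182), and without library 2 of KO-NI it was called higher (1.37). In WT the change was -0.64 (adjusted p = 0.572), called lower without library 1 or 2 of KO-NI (adjusted p = 0.00846 and 0.0103), which enter that comparison only through the shared estimate of the spread. The partners of the other groups were close together.

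**Figure D3:**
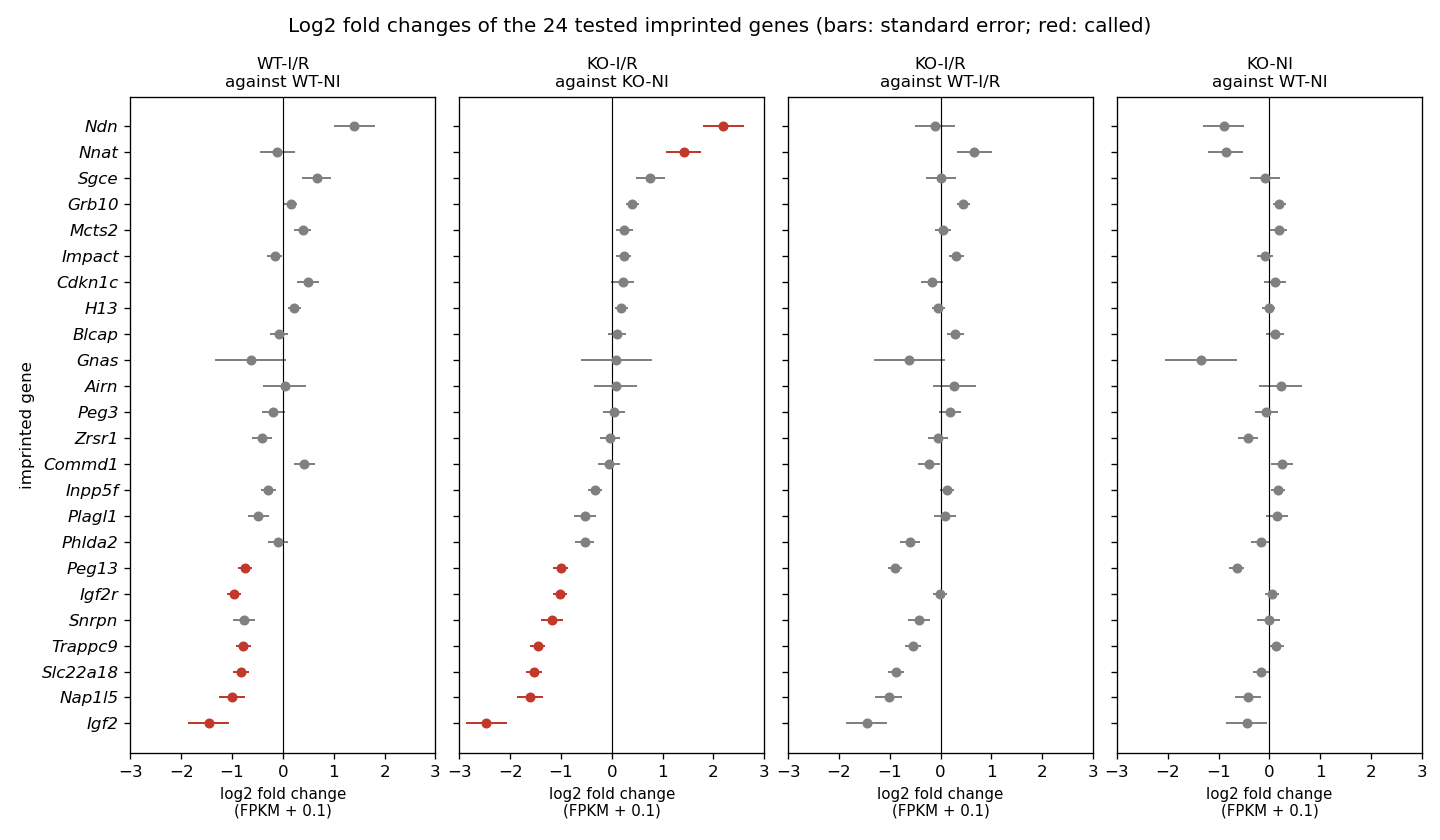
Log2 fold changes on the FPKM + 0.1 scale (x axis) of the 24 tested imprinted genes in 4 comparisons, each a point with its standard error, red where called; genes are in the order of the KO injury change. Called members lie at the bottom, from Igf2 at -2.47 to Peg13 at -1.01 in KO, and at the top, Ndn and Nnat, in the injury panels only; the genotype panels hold no called member.

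Members under 1 FPKM were followed in recovered reads. Meg3, the maternally expressed noncoding RNA of the Dlk1-Dio3 cluster on chromosome 12, had 4 and 9 reads in WT-NI, 1 and 8 in KO-NI, 35 and 55 in WT-I/R and 54 and 40 in KO-I/R. Rian, a noncoding host of small RNAs in the same cluster, had 2 and 3, 0 and 5, 19 and 15, and 19 and 21. Meg3, Rian and Dio3 reached 10 reads only in injured libraries, so they entered the test on recovered reads through the groups in which they were high. Both were higher in all injured than in all NI libraries. So were the summed fibroblast and pericyte markers (at least 235.3 FPKM against at most 65.3), whose part in this was not tested. The test on recovered reads called Meg3 higher in WT (2.43, adjusted p = 0.0268) and KO (3.01, adjusted p = 0.0111), and Rian in KO (2.92, adjusted p = 0.0227) but not in WT (2.21, adjusted p = 0.0691). Without library 1 of KO-NI both KO calls were lost (1.97 for Meg3 and 1.42 for Rian), that of Rian also without either KO-I/R library, and that of Meg3 in WT without either WT-NI library or library 2 of WT-I/R. Limma without a filter called neither gene (Meg3 0.92 in WT and 1.01 in KO, Rian 0.33 in KO). Dio3, encoding the deiodinase that inactivates thyroid hormone, had 2 and 7, 0 and 1, 12 and 16, and 22 and 51 reads. It was called higher in KO (4.71, adjusted p = 0.00292), where the depth-scaled ratio was 47.7 (95% exact interval 8.3 to 1910), and not in WT (1.40, adjusted p = 0.221). Dlk1, a paternally expressed Notch-like gene of the cluster, had 6 and 6, 4 and 7, 8 and 10, and 3 and 4 reads. The cluster's other members had at most 4 reads in a library (Rtl1) and at most 2 (Mirg).

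**Figure D4:**
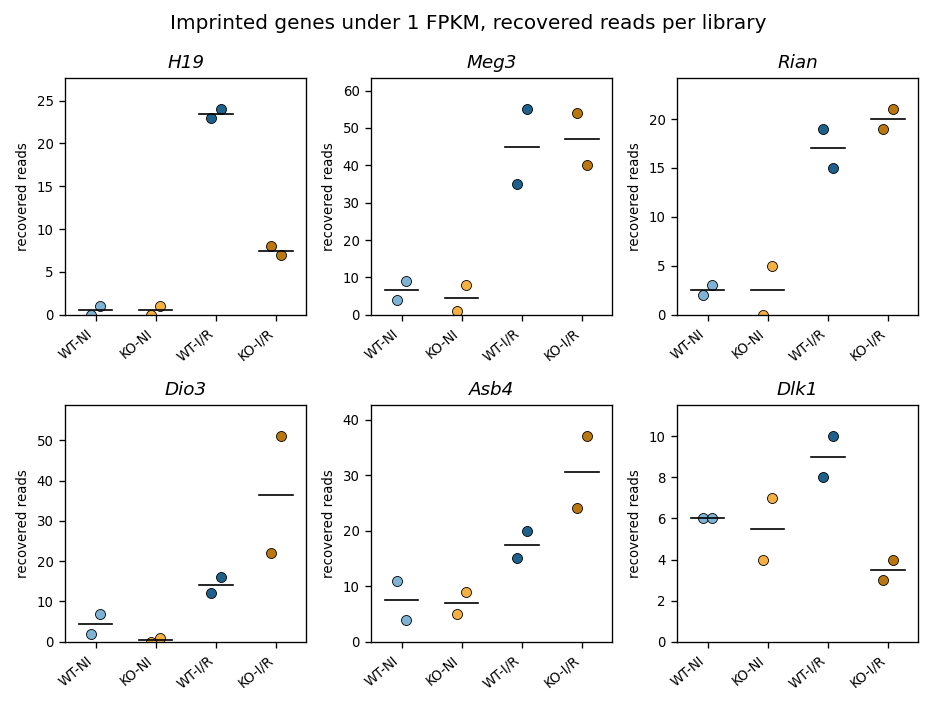
Recovered reads per library (not scaled for depth) of 6 members under 1 FPKM, with a line at each group's mean. H19, Meg3 and Rian are at 0 to 9 reads in NI libraries and at 7 to 55 in injured ones, Dio3 reaches 51 in KO-I/R, and Dlk1 stays at or under 10 throughout.

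Asb4, an ankyrin repeat gene near Peg10, had 11 and 4 reads in WT-NI, 5 and 9 in KO-NI, 15 and 20 in WT-I/R and 24 and 37 in KO-I/R. It was not called (0.96 in WT, and 1.45 with adjusted p = 0.0517 in KO), although the injured libraries were all above the others. Peg10, a gene derived from a retrotransposon, ranged from 2 to 25 reads, Mest, a hydrolase family gene, from 27 to 92, Zim1, a zinc finger gene, from 31 to 102, and Usp29, a deubiquitinase family gene, from 0 to 6. Peg10, Mest and Zim1 were called in no comparison, and Usp29 was not tested.

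The genotype comparison after injury asks whether Tet1 KO kidneys differ from WT at this time. No member was called by limma, nor was any of the 15650 genes (0%). Without the filter no member was called either (0.187% of all genes, 0.089% higher). At an unadjusted p under 0.05, 6 of 24 members were lower and 1 higher (25% and 4.17%), against 11.3% and 5.61% of all genes. In both libraries 10 of 24 members were lower than in either WT-I/R library (41.7%, against 29.5% of all genes), and 5 were higher (20.8% against 28%). The 6 lower members were Peg13 (-0.90, adjusted p = 0.0862), Slc22a18 (-0.87, adjusted p = 0.0916), Nap1l5 (-1.03, adjusted p = 0.133), Trappc9 (-0.54, adjusted p = 0.157), Igf2 (-1.45, adjusted p = 0.160) and Phlda2 (-0.61, adjusted p = 0.194), and the higher member was Grb10 (0.44, adjusted p = 0.172). The libraries of KO-I/R and WT-I/R did not overlap for these 7 genes.

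The test on recovered reads called 3 of 34 members, all lower in KO-I/R (8.82%, against 2.12% of all genes, 1.67% lower and 0.449% higher). They were Igf2 (-2.13, adjusted p = 0.0356), Slc22a18 (-0.87, adjusted p = 0.0266) and Peg13 (-0.92, adjusted p = 0.0261). Limma called 3 members lower when either KO-NI library was left out, Slc22a18, Peg13 and Gnas, with 4.24% of all genes called (3.53% lower) without library 1 and 4.27% (3.55% lower, 0.716% higher) without library 2. The difference for Igf2r was -0.01 with a standard error of 0.14. H19 had 15 reads in KO-I/R against 47 in WT-I/R, a depth-scaled ratio of 0.3 (95% exact interval 0.156 to 0.547, counting error only), and was not called (-1.68, adjusted p = 0.116). Both neighbours Igf2 and H19 were thus lower in both KO-I/R libraries. The summed proximal tubule markers were also lower in KO-I/R than in WT-I/R. So were 8 collecting duct markers (265.6 to 308.6 against 492.5 to 702.3 FPKM) and 7 loop and distal tubule markers (1115 to 1449 against 2054 to 2127), while 8 tubule injury markers were higher (12524 to 14527 against 4692 to 7593). The part of these in the lower members was not tested.

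Without injury, no member was called in KO-NI against WT-NI by limma or on recovered reads, nor any gene by limma (0%), and 0.011% of all genes on recovered reads. At an unadjusted p under 0.05 limma gave 2 members lower (8.33%, against 3.35% of all genes) and none higher (2.24% of all genes). In both libraries 8 of 24 members were lower than in either WT-NI library (33.3%, against 17.2% of all genes) and 2 higher (8.33% against 17.7%). Peg13 was at 7.75 and 6.54 FPKM against 12.1 and 10.4 (-0.65, standard error 0.14, adjusted p = 0.688) and Nnat at 0.727 and 1.47 against 1.79 and 2.19 (-0.86, adjusted p = 0.688). Ndn (-0.90) and Gnas (-1.34, standard error 0.70) had wide errors. When library 2 of KO-NI was left out and the outlying library 1 stood alone, 3 members were called, all lower (12.5%, against 14.3% of all genes, 9.31% lower), Gnas (-2.63), Nnat (-1.33) and Zrsr1 (-0.69). Without library 1 none was.

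Whether injury acted differently by genotype was tested as the difference of the 2 injury responses, KO minus WT. No member and no gene was called (0%), by limma or on recovered reads. At an unadjusted p under 0.05 limma gave 3 of 24 members (12.5%, against 10% of all genes). They were Nnat (1.53, standard error 0.48, adjusted p = 0.411), Slc22a18 (-0.70, standard error 0.22, adjusted p = 0.411) and Trappc9 (-0.68, standard error 0.21, adjusted p = 0.410). Snrpn, Ndn and Nnat, called in KO only, are therefore not shown to respond differently in the 2 genotypes. Without library 2 of KO-NI 1 of 24 members was called (Gnas, 2.01), against 1.5% of all genes. The injury and genotype comparisons share libraries.

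Of 44 other imprinted genes, 24 were tested, and 1 was higher and 5 lower in WT after injury, 3 higher and 9 lower in KO. The shares over all tested genes were 8.9% higher and 8.45% lower in WT, and 17.9% and 19.4% in KO. Dcn, a placentally imprinted gene for the matrix proteoglycan decorin, rose from a mean of 3.35 to 13.9 FPKM in WT (2.02) and from 3.43 to 19.3 in KO (2.48). Jade1 (-0.94 in WT and -0.91 in KO) and Gab1 (-0.54 and -0.90) fell in both genotypes. Kcnq1 fell in KO (-1.31), with a change of -0.30 in WT that was not called. Among those not called was Cd81 (-0.09 in WT and -0.25 in KO). A list of 20 factors that act on DNA methylation, imprints or chromatin, with Tet1, Tet2 and Tet3 among them, had 17 tested. By limma 3 were higher and none lower in WT, and 4 higher and none lower in KO. The same shares over all genes apply to these limma counts. On recovered reads 4 of 18 were higher and 1 lower in KO (20% and 18.9% of all genes). Zfp57, the zinc finger protein that binds methylated imprint control regions, rose from a mean of 0.743 to 2.58 FPKM in WT (1.67, adjusted p = 0.00913) and from 0.612 to 3.84 in KO (2.49, adjusted p = 0.000782). Uhrf1, which guides maintenance methylation in dividing cells, rose by 2.62 in WT and 2.17 in KO on the log2 scale, and the chromatin remodeler Hells by 1.47 and 1.46. Trim28, the cofactor of ZFP57, was not called (0.15 and 0.25). Limma called no gene of either list in the genotype comparisons, and the test on recovered reads called 1, Kcnq1, lower in KO-I/R than in WT-I/R (-1.02, adjusted p = 0.0234).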

How the data were processed

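The 8 libraries were grouped by genotype and injury from the sample labels. The authors deposited FPKM per gene. Per the submitters' processing notes reads were placed with HISAT2 2.0.5 on GRCm38.p6 (mm10). The counting program and its use of strand are not given in the sources used here. Of 55923 lines 4 were empty. FPKM times gene length gave whole multiples of the value of 1 read for 100% of values (tolerance 0.001), so reads were recovered. The authors' divisor was 0.808 to 0.886 times their sum in NI libraries and 1.04 to 1.13 times in injured ones. The same divisor scaled the ratios of reads and gave limma voom its library sizes. Since FPKM is not a count, limma 3.58.1 (R 4.3.3; 4 group means, variance trend) on log2(FPKM + 0.1) was the main test over 15650 genes that reached 1 FPKM in 2 or more libraries. Fold changes on that scale understate low genes. limma voom on recovered reads (18252 genes with at least 10 reads in at least 2 libraries) was an alternative. Both were also run on simulated data, made only from genes past the filter of the main test and without an outlying library. That run is therefore no check of calls that depend on library 1 of KO-NI or on few reads. Ratios of few reads carry exact binomial intervals (scipy 1.17.1). Deposited positions differed from GRCm38 for 37 members, so positions came from GENCODE M21. Values are given per library for members with a group mean of at least 1 FPKM and, for each other list, for at most 3 called genes, by adjusted p, and at most 2 uncalled genes, by mean level. The members and lists were chosen with earlier results of these data known. Low members named by reads were chosen after their values were seen.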

Additional observations from a re-analysis of the deposited data

Results flagged for a closer look

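The genotype effect on Nnat went opposite ways without and with injury. Its KO-NI pair lay below the WT-NI pair and its KO-I/R pair above the WT-I/R pair. The difference of the injury responses was 1.53 on the log2 scale (standard error 0.48, limma adjusted p = 0.411). Its lowest value, 0.727 FPKM, was in library 1 of KO-NI.

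Trappc9 had the reverse order, higher in KO-NI and lower in KO-I/R than in the WT libraries, with a difference of -0.68 (standard error 0.21, limma adjusted p = 0.410). Dio3 was lower in KO-NI and higher in KO-I/R, with a difference of 3.32 in limma voom (standard error 1.21, adjusted p = 0.391), and had 1 read in all in KO-NI.

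For Dlk1 both WT libraries had higher FPKM after injury and both KO libraries had lower FPKM. This rests on 48 reads over the 8 libraries, and the difference was not tested.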

How the results depend on the processing

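Of the values of single members under the alternatives, 968 kept their direction and side of the threshold, 48 passed it only under the alternative, 47 no longer passed it and 11 reversed. On recovered reads 11 of 34 members were called after injury in WT, 14 in KO and 3 in KO against WT after injury. The shares of all genes were 20.1%, 38.9% and 2.12%. TPM gave 16 of 24 in KO (66.7%, against 42.5% of all genes), so there the share of members called was above that of genes in general. The main test gave 6, 9 and 0 of 24 (17.3%, 37.4% and 0% of all genes). Leaving out 1 library gave 0 to 8 members in WT injury, 8 to 12 in KO injury, 0 to 3 in each genotype comparison and 0 to 1 for the difference of responses. Replicate numbers did not pair the libraries (correlations of deviations 0.0273 to 0.173), and with the replicate block 6, 9, 0, 0 and 0 members were called, so the block moved no total. In WT it gave 1 higher and 5 lower in place of 0 and 6, with Igf2 (adjusted p = 0.0604) lost and Ndn (1.41, adjusted p = 0.0298) gained. Without library 1 of KO-NI the KO injury change of Gnas reversed and was called lower (leaving out 1 library gave -1.19 to 1.37, and pseudocount 1 gave -0.031), while that of Cdkn1c (-0.12 to 0.55) and Blcap (-0.14 to 0.35) reversed without library 2 of KO-NI. Without library 1 of KO-NI the difference of responses reversed for Gnas (-0.55 to 2.01) and, on recovered reads, for Meg3 (-0.46 to 1.76) and Rian (-0.79 to 2.38). So did KO-NI against WT-NI for Meg3 (-1.79 to 0.43) and Rian (-2.23 to 0.95, and 0.000353 in limma without a filter). Zim1 reversed in KO against WT after injury without library 2 of KO-I/R (-1.59 to 0.34). Of these reversed values Gnas in KO injury alone was called, and the cause was not tested. Of the 15 members under 1 FPKM, 6 had too few reads for either test.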
